A study of Homo sapiens with 4 samples.

Results

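Ribosome footprints on 4 genes of the melanosome, the pigment-making organelle of melanocytes, were followed in A375 cells with and without arginine. The genes are TYRP1, MFSD12, SLC45A2 and AP3D1. They were chosen by their place on GRCh38, and their rows are 4 of the 78724 gene rows of the deposited table. Of these 4 rows, 3 held at least 20 reads over the libraries, and SLC45A2, with 2 reads, is given as counts only. The genes were picked with differences between the media already known, and TYRP1 passed the minimum of 20 reads only through its control libraries. Their own differences are therefore described with fitted values and standard errors, without a test.

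A375 is an established human melanoma line. Cells of both groups were of this line, with no further agent or genetic change in the labels, and were kept for 48 h either in control medium or in medium made up with every amino acid except L-arginine. The series concerns tumours deficient in ASS1, an enzyme that cells need to make their own arginine. Each medium has 2 libraries of ribosome-protected fragments, and the labels do not say whether the replicates were separate cultures, so the spread between them may be technical. Total counts per library ran from 105004 to 234766.

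Melanosomes are organelles related to lysosomes, in which enzymes of the tyrosinase family turn tyrosine into melanin. TYRP1 is such an enzyme of the melanosome membrane. MFSD12 brings cysteine into the melanosome and SLC45A2 is a transporter that bears on its acidity. AP3D1 is the large delta subunit of AP-3, an adaptor complex that sorts cargo, tyrosinase among it, towards melanosomes and lysosomes, and it is used well beyond pigment cells. A footprint marks a ribosome on an mRNA, so its number follows both the amount of mRNA and how densely ribosomes sit on it. Without matched RNA values these cannot be told apart here, nor can fewer expressing cells be told from less RNA per cell.

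Promoter windows were available for 2 of the 4 genes, TYRP1 and MFSD12, and are shown to compare the letters CATGTG and CACGTG. These are E-box letters that MITF, the melanocyte transcription factor, is known to bind. Each window runs from 250 bases before to 50 bases after the gene start in RefSeq GRCh38.p14, and is written on the strand of the gene, 5′ to 3′. Capitals mark every match on either strand. The TYRP1 window lies at chr9:12693135-12693434 on the plus strand and that of MFSD12 at chr19:3557537-3557836 on the minus strand.
TYRP1: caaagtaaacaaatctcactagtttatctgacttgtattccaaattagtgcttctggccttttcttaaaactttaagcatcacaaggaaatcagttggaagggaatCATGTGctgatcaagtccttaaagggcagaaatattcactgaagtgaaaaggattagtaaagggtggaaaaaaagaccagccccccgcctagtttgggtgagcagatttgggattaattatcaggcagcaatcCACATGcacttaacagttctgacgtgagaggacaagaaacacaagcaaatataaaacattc
MFSD12: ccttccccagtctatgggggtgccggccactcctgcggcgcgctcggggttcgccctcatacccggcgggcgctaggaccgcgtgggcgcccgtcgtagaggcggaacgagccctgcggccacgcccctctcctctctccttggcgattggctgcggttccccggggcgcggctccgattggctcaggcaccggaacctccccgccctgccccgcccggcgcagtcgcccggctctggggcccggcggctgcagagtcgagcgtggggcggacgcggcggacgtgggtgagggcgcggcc

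The TYRP1 window held 2 matches, CATGTG on the strand of the gene at position -144 from the gene start, and CACATG on the other strand at position -11. It held no CACGTG. The MFSD12 window held neither word, and 76.7% of its bases were G or C, against 39.0% for TYRP1 and a median of 58.3% over 27305 windows. CATGTG or its other strand CACATG was found in 11.2% of these windows, at least 2 matches of it in 1.48%, and CACGTG, which reads the same on both strands, in 7.43%. The window of MLANA, another melanosome gene described below, held neither word on either strand, and 44.7% of its bases were G or C. A match describes the letters only. The promoter table matched 2 of the 4 genes, TYRP1 and MFSD12.

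GRCh37 is the build in the processing notes, while the rows lie at GRCh38 places, so the surroundings of each row were checked first. The 20 nearest protein-coding rows on each side were taken. Around TYRP1, 26 of 40 such rows held at least 20 reads, around AP3D1 25 of 40, around MFSD12 19 of 40 and around SLC45A2 15 of 40. Over all 18307 protein-coding rows the share was 11.6%. Rows at 0 made up 20% of the neighbours of TYRP1, 17.5% for MFSD12, 10% for AP3D1 and 47.5% for SLC45A2, against 71.8% of all protein-coding rows. The surroundings of the 4 genes were thus filled more than the table at large, least so around SLC45A2. If the builds are offset by less than the length of a gene here, a row would still miss some of its reads.

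**Figure D1:**
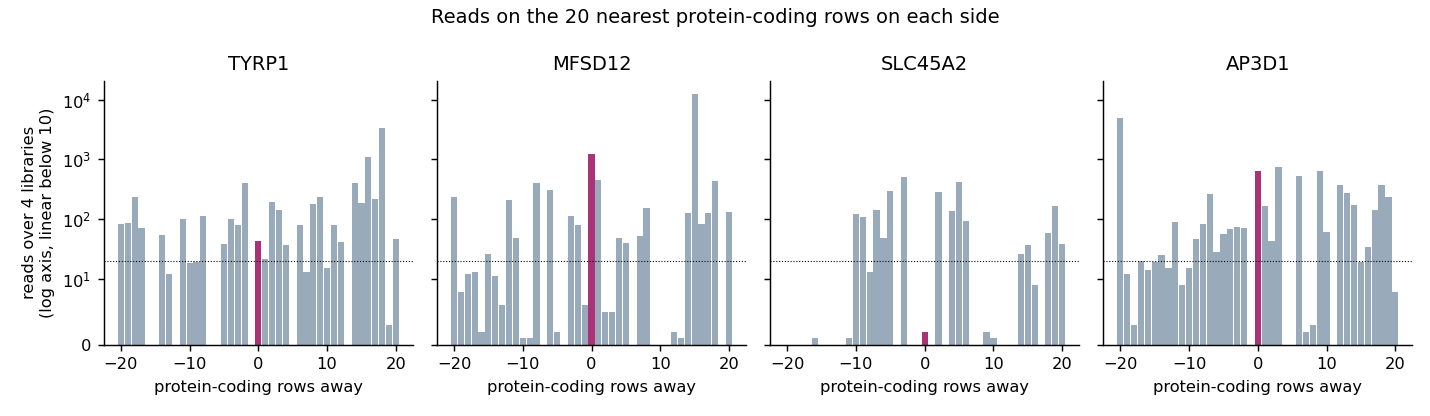
Reads over the 4 libraries (log axis, linear below 10) on each gene and its 20 nearest protein-coding rows on each side, ordered along the chromosome; the dotted line marks 20 reads and the gene itself is the coloured bar at 0. At least 20 reads were held by 26, 19, 15 and 25 of the 40 neighbours of TYRP1, MFSD12, SLC45A2 and AP3D1.

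TYRP1, the melanin enzyme, went from a low level of footprints to almost none. Its row (ENSG00000107165.13, chromosome 9, 12693385 to 12710285, plus strand, 8 exon blocks of 2896 bases) held 16 and 25 reads in control replicates 1 and 2, and 1 and 0 reads in arginine-free replicates 1 and 2. As CPM, which scales the counts to the size of each library, these were 151 and 128 against 4.33 and 0. Both arginine-free libraries lay below both control libraries. The 95% Poisson counting intervals of the control libraries, 86.2 to 245 and 83.0 to 189 CPM, did not meet those of the arginine-free libraries, whose upper ends were 24.1 and 23.2 CPM.

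The groups averaged 140 ± 16.0 and 2.17 ± 3.06 CPM for TYRP1 (SD, n = 2 each). By summed reads over total counts the control level was 54.2 times that in arginine-free medium, with an exact 95% counting interval from 9.19 to 2191. Leaving out arginine-free replicate 2 gave 29.8 times (5.06 to 1205). Without arginine-free replicate 1 the medium held no TYRP1 read. Taking 3 counts over the group as the floor, the control level was then at least 8.12-fold higher. This value allows no counting error for the control reads and is no 95% limit. The fitted log2 fold change was -5.39 (SE 0.75), a value that depends on how a near-zero count is handled and is no bound. It became -4.72 without arginine-free replicate 2. The direction rests on 41 control reads against 1.

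MFSD12, the cysteine carrier, was the most abundant of the 4 genes and was 3.48-fold lower without arginine by the fitted value. Its row (ENSG00000161091.15, chromosome 19, 3544199 to 3557586, minus strand, 10 exon blocks of 2137 bases) held 370 and 511 reads in control replicates 1 and 2 and 175 and 159 in arginine-free replicates 1 and 2. As levels these were 3487 and 2621 CPM in the control libraries, against 758 and 999 CPM without arginine. The lowest control library thus stood well above the highest arginine-free one. The control libraries also differed from each other beyond counting error, with 95% intervals of 3141 to 3861 and 2398 to 2858 CPM. Means were 3054 ± 613 and 878 ± 170 CPM (SD, n = 2 each), and the fitted log2 fold change was -1.80 (SE 0.25).

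AP3D1, the adaptor subunit, showed the smallest of the 3 differences, less than 2-fold. Its row (ENSG00000065000.20, chromosome 19, 2100988 to 2151566, minus strand, 32 exon blocks of 5065 bases) held 142 and 231 reads in control replicates 1 and 2 and 138 and 130 in arginine-free replicates 1 and 2. These correspond to 1338 and 1185 CPM against 598 and 816 CPM. Again both arginine-free libraries were below both control libraries, and arginine-free replicate 1 was the lowest. Means were 1261 ± 109 and 707 ± 155 CPM (SD, n = 2 each), and the fitted log2 fold change was -0.84 (SE 0.23), or 1.79-fold lower.

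SLC45A2, the transporter tied to melanosome acidity, was hardly seen. Its row (ENSG00000164175.15, chromosome 5, 33944623 to 33984693, minus strand, 7 exon blocks of 3174 bases) held 0 and 2 reads in control replicates 1 and 2 and 0 in each arginine-free library. A count of 0 allows up to 3 reads, which is 28.6 CPM of all rows in control replicate 1 and 12.8 and 15.6 CPM in arginine-free replicates 1 and 2. Control replicate 2 stood at 9.17 CPM on the same scale, under each of these limits. A difference between the media was not detectable at this depth.

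**Figure D2:**
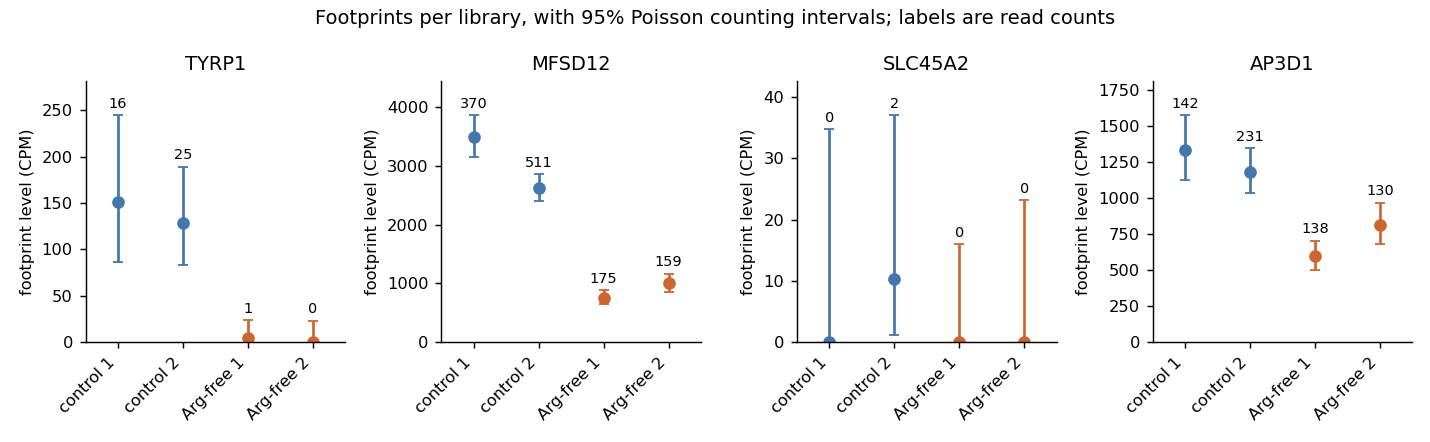
Footprint level in CPM for the 4 genes in each library, control in blue and arginine-free (Arg-free) in orange; bars are 95% Poisson counting intervals and the labels are read counts. For TYRP1, MFSD12 and AP3D1 both arginine-free points lie below both control points, while SLC45A2 has 2 reads in all.

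In 3 of the 4 genes both arginine-free libraries lay below both control libraries. The same held for 34.2% of the 2526 tested rows, for 31.1% of the 61 tested rows of the chromosome 9 region around TYRP1 and for 25.5% of the 55 of the chromosome 19 region around MFSD12 and AP3D1. Since the genes were chosen on this contrast, nothing is read from their count. These regions run from VLDLR to VCP and from ATP5F1D to CHAF1A, where neighbouring broadly used genes held reads, and a further one on chromosome 5 runs from SDHA to HMGCS1 and contains SLC45A2. The start of the chromosome 9 region at VLDLR depends on a gene that held few reads in control medium, 4 and 8.

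Against the spread of all tested rows, the 3 genes took very different positions. The median log2 fold change over the 2526 tested rows was -0.03. The genes were chosen on this contrast, so their positions are a description. TYRP1 was lower than 99.6% of the tested rows, with 8 rows below it, and no tested row of the chromosome 9 region was lower. Its position rests on 1 arginine-free read and on how a near-zero count is handled. MFSD12 was lower than 92.4% of all tested rows, and 4 of the 55 in the chromosome 19 region were lower still. AP3D1 was lower than 77.9%, with 10 of the 55 below it. The median log2 fold change was 0.08 in the chromosome 9 region and 0.18 in that of chromosome 19, opposite in sign to these genes.

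**Figure D3:**
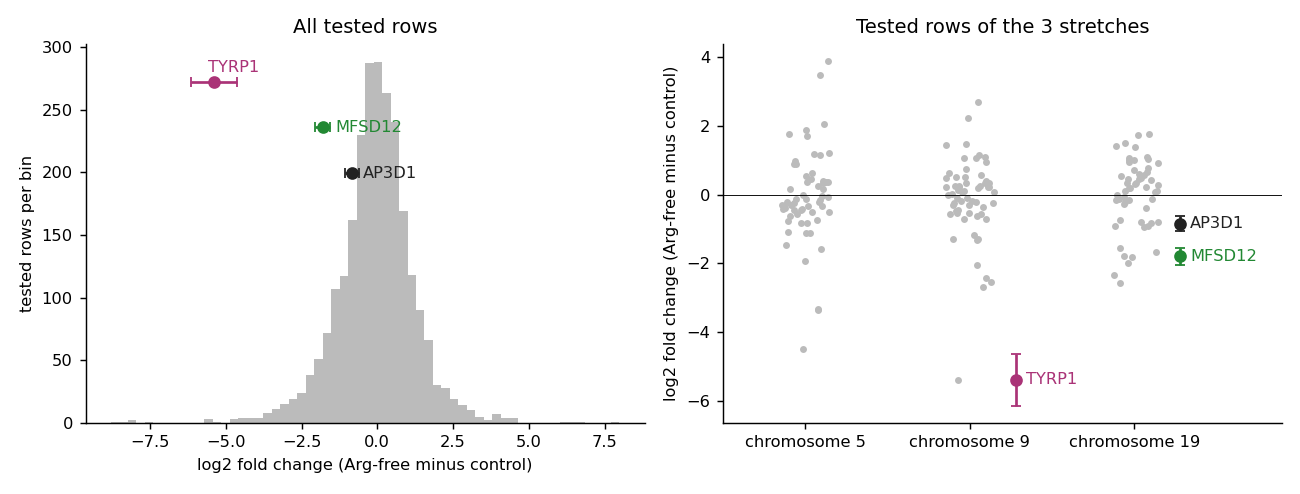
Left, the number of tested rows per bin of log2 fold change (arginine-free minus control), with TYRP1, MFSD12 and AP3D1 marked with their SE at arbitrary heights; right, each tested row of the 3 regions as a grey point, with the same genes beside their region. TYRP1 at -5.39, which rests on 1 arginine-free read, is the lowest point of the chromosome 9 region. MFSD12 lies at -1.80 and AP3D1 at -0.84.

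Ratios between genes inside a library need no scaling for depth. MFSD12 had 2.61 and 2.21 reads for each AP3D1 read in control replicates 1 and 2, and 1.27 and 1.22 in arginine-free replicates 1 and 2. The means were 2.41 ± 0.278 and 1.25 ± 0.0319 (SD, n = 2 each), and the exact 95% counting intervals of the control libraries (2.14 to 3.19 and 1.89 to 2.60) did not meet those of the arginine-free libraries (1.01 to 1.60 and 0.964 to 1.55). Both arginine-free ratios lay below both control ratios, which is a description, since the intervals cover counting error only and the genes were chosen on this contrast. TYRP1 had 0.113 and 0.108 reads per AP3D1 read in control medium and 0.00725 and 0 without arginine, with upper counting limits of 0.0411 and 0.0288. Relative to MFSD12 it had 0.0432 and 0.0489 with arginine and 0.00571 and 0 without, where the interval in arginine-free replicate 1, up to 0.0323, met those of the control libraries, which began at 0.0245 and 0.0314.

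**Figure D4:**
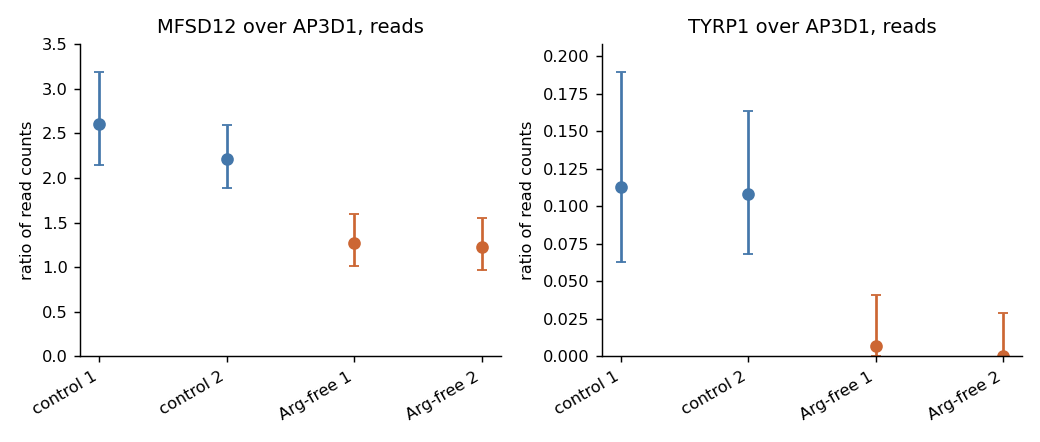
Reads of MFSD12 (left) and TYRP1 (right) for each read of AP3D1 in the same library, with exact 95% counting intervals; control in blue and arginine-free in orange. The MFSD12 ratio is 2.61 and 2.21 in control medium and 1.27 and 1.22 without arginine.

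Per 1000 bases of exon, the order of levels in control medium was MFSD12 (1429 ± 287 CPM per 1000 bases), AP3D1 (249 ± 21.4), TYRP1 (48.2 ± 5.51) and SLC45A2 (1.62 ± 2.29; SD, n = 2 each). No neighbours in that order overlapped between libraries. In arginine-free medium MFSD12 stood at 411 ± 79.7, AP3D1 at 140 ± 30.6 and TYRP1 at 0.748 ± 1.06 CPM per 1000 bases, while SLC45A2 held no read. MFSD12 and AP3D1 kept their places there, and TYRP1 and SLC45A2 could not be ordered, both being at or under the limit of a count of 0. These lengths count untranslated exon bases too, where few footprints fall.

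The row of MFSD12 shares 565 of its 2137 exon bases with an antisense row, ENSG00000267436.1, that held no read. TYRP1 shares 263 bases with LURAP1L-AS1, an antisense RNA whose row held 1 and 1 reads in control replicates 1 and 2 and 7 and 1 in arginine-free replicates 1 and 2. Counting was without strand, so reads of such partners cannot be told apart, and reads over shared bases may have entered neither row. The exons of AP3D1 and SLC45A2 overlapped no other row's exons.

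The nearest protein-coding rows did not all move with the genes. Beside MFSD12, HMG20B, a chromatin protein, held 138 and 229 reads in control replicates and 36 and 43 in arginine-free ones, the same direction, and TEKTIP1 held 2, 4, 0 and 0. Beside TYRP1, LURAP1L held 2 and 1 reads in control and 11 and 7 in arginine-free medium, the opposite direction, and PTPRD was listed at 0. Beside AP3D1, the histone methyltransferase DOT1L had a log2 fold change of 0.28 and did not pass (edgeR adjusted p = 0.521), and IZUMO4 was listed at 0. Both neighbours of SLC45A2, RXFP3 and AMACR, were listed at 0.

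The rows most like each gene were found among 158 protein-coding rows tested in the 3 regions. The measure was the root mean square difference of log2 CPM over the 4 libraries, after centring each row on its mean. A prior count of 2 entered log2 CPM, which shrinks differences at counts as low as those of TYRP1. For TYRP1 the most alike rows were GHR, the growth hormone receptor (difference 0.27), SEMA5A, an axon guidance protein (0.32), and HMG20B (0.64). Fitted log2 fold changes of GHR and SEMA5A were -3.35 and -3.33, against -5.39 for TYRP1. GHR held 29, 51, 8 and 2 reads and SEMA5A 30, 49, 6 and 4, in the order control 1, control 2, arginine-free 1 and arginine-free 2. For MFSD12 they were ATP5F1D, a subunit of ATP synthase (0.10), HMGCS1, an early enzyme of cholesterol synthesis (0.13), and BTBD2 (0.13). For AP3D1 they were TLE5, a transcriptional corepressor (0.04), the exocyst subunit EXOC3 (0.08) and the kinase MAP2K2 (0.15). TLE5 held 45, 76, 46 and 43 reads.

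Of 41 other genes of melanosome biology that were listed, 36 were matched to a row. Of these 36, 24 were listed at 0 in all 4 libraries, 9 held 1 to 19 reads and 3 held at least 20. Over all protein-coding rows, 71.8% were at 0 and 11.6% held at least 20 reads, so the counts are not read as a trait of these genes. MLANA, a melanosome protein that takes part in forming the pigment-bearing fibrils and is widely used as a melanoma marker, was the 1 gene of the 36 inside the 3 regions, in the same chromosome 9 region as TYRP1. It held 6 and 10 reads in control replicates 1 and 2 and 0 and 2 in arginine-free replicates 1 and 2. Its row had too few reads for the edgeR test as filtered. With 18 reads in all it lies under the minimum of 20 and is given as counts only.

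The 3 pathway rows that were tested besides the 4 genes lie outside the regions, and may hold reads of other genes. The row at AP3B1, the beta subunit of the same AP-3 complex as AP3D1, held 2 reads in each control library and 12 and 14 in the arginine-free ones, and was higher (log2 fold change 2.28, SE 0.70, edgeR adjusted p = 0.0225). It entered the test only through the arginine-free libraries, where it is high, so the filter favoured this direction. Over all tested rows 16.0% were higher and 16.9% lower at this threshold of 0.05. Rows at TFAP2A (log2 fold change -1.01, SE 0.40, edgeR adjusted p = 0.0681) and MYO5A (0.17, SE 0.40, edgeR adjusted p = 0.77) did not pass. Thus 1 of 3 was higher and none lower. The AP3B1 call ended with DESeq2 (adjusted p = 0.253) and, in edgeR, without control replicate 1, control replicate 2 or arginine-free replicate 2 (adjusted p = 0.0696, 0.277 and 0.144).

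The melanocytic identity of the line could be read from only part of its markers. Of 7 markers, 6 were matched, and MLANA and TYRP1 held reads, while TYR, PMEL, MITF and SOX10, which lie outside the regions, were listed at 0. The summed level of the list was 161 to 210 CPM of all rows in control libraries and 4.26 to 10.4 in arginine-free ones. TYRP1, chosen on this contrast, gave 16 of 22 and 25 of 35 reads of the list in control replicates 1 and 2. MLANA gave the rest. The difference in this sum is thus mostly that of TYRP1 and is no separate result. Markers of keratinocytes summed to 0 to 18.3 CPM in control and 10.4 to 29.8 CPM in arginine-free libraries. Those of leukocytes summed to 0 to 4.59 and 0 CPM, and those of fibroblasts to 0 in every library. Their part in the results was not tested.

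The fitted changes of the 3 genes were recomputed under other scalings, filters, tools and with each library left out. TYRP1 ran from -5.67 to -4.72, MFSD12 from -2.04 to -1.56 and AP3D1 from -1.08 to -0.57 on the log2 scale. Each stayed below 0 in every setting that gave it a value. The genes were chosen on this contrast, and both arginine-free libraries lay below both control libraries. Leaving 1 library out could therefore hardly change the direction, and the kept sign is no separate support.

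**Figure D5:**
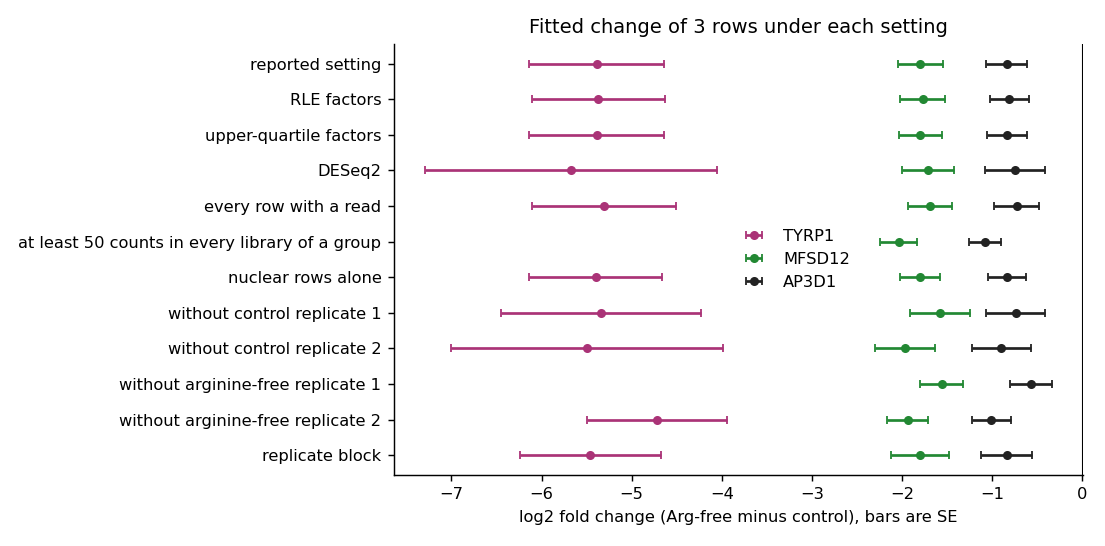
Fitted log2 fold change (arginine-free minus control) of TYRP1, MFSD12 and AP3D1 under the reported setting and each alternative; bars are SE. Every point lies below 0, and AP3D1 comes nearest, at -0.57 without arginine-free replicate 1.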

How the data were processed

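The authors deposited counts per gene row. Per the file headers, these came from featureCounts 2.0.1, run on GENCODE 47 (basic) exons with no strand option. Tools in the submitters' processing notes are cutadapt, TopHat2 and Bowtie2 2.5.2, and the builds there are GRCh37 and hg19. Rows carry identifiers without symbols and were named by place against RefSeq GRCh38.p14: 38579 of 78724 rows were each other's best match with a gene, at an overlap over union of at least 0.5 with a shared end or 0.75 without.

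The counts of the 4 libraries were fitted with edgeR 4.0.16 (R 4.3.3): TMM factors, filterByExpr by group, quasi-likelihood test, Benjamini-Hochberg adjustment over 2526 tested rows. CPM are counts over the tested total times its TMM factor. An SE is the size of the log2 fold change divided by the root of its F statistic. The fit was tested on simulated counts with 200 changed rows. It recovered 78% of 4-fold and 26% of 2-fold changes, and called 2 unchanged rows. A row that did not pass may therefore still differ. All simulated rows shared 1 dispersion of 0.034, and 200 of 2526 were changed, while the data gave 405 rows higher and 428 lower. The 2 wrong calls are thus no error rate for these data. DESeq2 1.42.0 was an alternative. Intervals and floors cover counting error only and treat each read as an independent molecule. Without molecular identifiers reads need not be independent, so the intervals may be too narrow. Those on summed reads also leave out the spread between replicates.

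The genes, lists, regions and the rule for other named genes (pathway genes in the 3 regions, the 3 most alike rows per gene, the nearest rows) were chosen with earlier results of these data known. Arginine content of the proteins was planned and is not analysed here.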

Additional observations from a re-analysis of the deposited data

How the results depend on the processing

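Each setting was planned. The settings did not test the same number of rows. The reported fit tested 2526, DESeq2 9443, and the minimum of 50 counts left 580. With 1 library left out, 2826 to 3172 rows were tested. A lower count in a setting therefore need not be a lower share of its tested rows. Over all tested rows of the reported fit, 405 were higher and 428 lower. These numbers were 162 and 147 with DESeq2, 138 and 146 where each library of some group had to hold 50 counts or more, and 270 to 418 and 243 to 389 with 1 library left out, the lowest counts being those without control replicate 2. TYRP1 stood at -5.67 with DESeq2 and from -5.50 to -4.72 with 1 library left out. It has no value without arginine-free replicate 1, where no read is left in that medium, nor with the minimum of 50 counts. AP3D1 stood at -1.08 with the minimum of 50 counts, a setting that moved the shared rows by a median of -0.24, and from -1.01 to -0.57 with 1 library left out. MFSD12 ran from -1.97 to -1.56 with 1 library left out.

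With the replicate block, 354 rows were higher and 372 lower, and TYRP1, MFSD12 and AP3D1 stood at -5.46, -1.80 and -0.84. Libraries that share a number did not deviate together over the tested rows (correlation -0.0528 over 2526 rows). With 2 libraries per medium and many low counts, this cannot show whether the numbers pair them. Mitochondrial rows held 16.5% and 26.2% of the counts in control replicates 1 and 2. In arginine-free replicates 1 and 2 they held 18.2% and 24.6%. The block changed no direction.

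Of the other melanosome rows 1 passed in the reported fit, 2 when every row with a read was entered, where MLANA also passed (log2 fold change -3.11, SE 0.87, edgeR adjusted p = 0.00636), 0 with DESeq2, and 0 with nuclear rows alone, where AP3B1 fell under the filter. With 1 library left out the number was 0 to 1, and the row that passed without arginine-free replicate 2 was MLANA, which then entered only through the control libraries, where it is high. Without arginine-free replicate 1, MLANA stood at -1.97 and did not pass (edgeR adjusted p = 0.244). The cause of these shifts was not tested. No fold is given for SLC45A2, which held 2 reads, or for MLANA, which held 18. Depth limits the values of TYRP1, MLANA, AP3B1 and SLC45A2, each with fewer than 50 reads.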
